A study of Mus musculus with 6 samples.

Results

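The genes described here are 56 protein-coding members of the Wnt pathway, chosen by name from the 54532 genes of the count table. They are all genes named as Wnt ligands (19), Frizzled receptors (10), the co-receptor genes Lrp5 and Lrp6, the antagonists of the Dkk, Sfrp and Wif1 families (9), the R-spondins (4) and their receptors Lgr4, Lgr5 and Lgr6, the receptor ligases Rnf43 and Znrf3, Ctnnb1 with Axin1 and Axin2, and the LEF/TCF factors (4). The rule uses names and no measured value, but it was set with earlier results of these data known. RNA was sequenced from 6 libraries labelled as mouse Glu-tag cells, an enteroendocrine line by which the study represents neuroendocrine tumours of the small intestine. Of these, 3 carry a control hairpin and a genotype label of WT (called shControl 1 to 3) and 3 are labelled as a stable IRS2 knockdown (called shIRS2 1 to 3), numbered as in their titles. No age, treatment or clone is given in the labels, and all groups are the same line. The series text speaks of biological triplicates, but no label says what a number marks, so the p-values reflect how much these libraries vary, part of which may be technical.

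Wnt proteins are secreted lipid-modified ligands that bind a Frizzled receptor together with Lrp5 or Lrp6. Binding inactivates a complex of Axin, Apc and the kinases Gsk3 and casein kinase that otherwise marks β-catenin, the product of Ctnnb1, for degradation, and the β-catenin that then accumulates activates genes with the LEF/TCF factors. R-spondins act through Lgr receptors to remove Rnf43 and Znrf3, which clear Frizzleds from the cell surface. In the intestine this pathway maintains crypt stem cells, and in L cells Tcf7l2 is known as an activator of the proglucagon gene Gcg.

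Library totals ran from 14991019 to 19790073 counts. Irs2 RNA, the target of the hairpin, stood at 31.6, 22.7 and 34.3 CPM (counts per 1000000 counts of a library) in shControl 1 to 3 and at 31.4, 28.6 and 38.7 CPM in shIRS2 1 to 3. The log2 fold change was 0.17 (SE 0.16) at an adjusted p of 1.00 by edgeR. Irs2 was thus not lower in the libraries labelled shIRS2, and directions are given by the label alone. The label of the cells was checked against markers. Of 22 markers of L cells 17 had a mean under 1 CPM, and of these Gcg, Chga, Pcsk1, Pyy and Neurod1 were at 0 in all 6 libraries. The 5 above 1 CPM were Cpe at a mean of 215 CPM, Etv1 at 103 CPM, Pax6 at 23.7 CPM, Foxa2 at 4.07 CPM and Nkx2-2 at 3.17 CPM. Of 10 intestinal epithelial markers 8 were under 1 CPM, among them Cdx2 at 0, while Krt8 had 396 CPM and Krt18 4.85 CPM. Of 15 fibroblast and mesenchymal markers 10 were above 1 CPM, with a summed level of 2772 to 3242 CPM in the control libraries and 3238 to 3429 CPM in the libraries labelled shIRS2. Vim at 1942 CPM and Col3a1 at 735 CPM made up most of that sum, while Col1a1, Dcn and Fap were under 1 CPM and Thy1 and Postn at 0. Immune and endothelial markers summed to at most 3.24 and 2.17 CPM, and neuronal and glial markers to 24.1 to 31.6 CPM. Most of the listed L cell markers, the hormone genes Gcg and Pyy among them, thus go against the label, while the 5 above 1 CPM do not. The cells are called by their label only.

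Of the 56 members, 15 had 0 counts in all 6 libraries, which allows a level of up to 0.0295 CPM, and a further 15 had 1 to 57 counts over all libraries together. These 30 genes did not pass the filter on low counts, and 26 were tested. The members took 0.128% to 0.139% of the counts of a library. A mean of at least 1 CPM was reached by 22 members. Levels are compared between genes in the FPKM of the deposited table (fragments per kilobase of gene, scaled for the library total), and each gene is compared between libraries in CPM. In such bulk RNA, fewer cells that express a gene and less RNA per cell cannot be told apart.

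**Figure D1:**
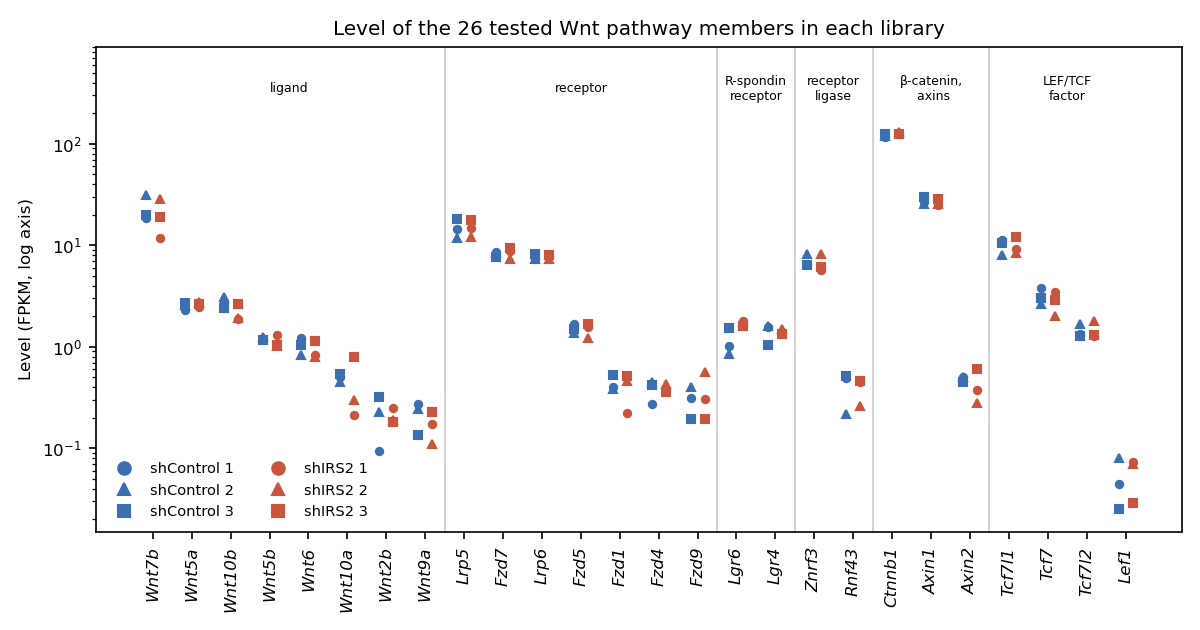
Level in FPKM on a log axis of each of the 26 tested members, ordered by role and mean; points are the 6 libraries, with colour for the label and shape for the replicate number. Ctnnb1 lies highest with a mean of 124 FPKM, and Wnt7b lies above the other ligands in all libraries.

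Wnt7b supplied most of the Wnt ligand RNA. Its mean level was 21.5 FPKM, and it made up 68.4%, 77.8% and 70.4% of the summed FPKM of the 19 Wnt genes in shControl 1 to 3 and 61.4%, 79.6% and 67.9% in shIRS2 1 to 3. Both libraries numbered 2 had the largest shares. Wnt5a, which is best known for signalling without β-catenin, followed at a mean of 2.57 FPKM and Wnt10b, a ligand of the β-catenin branch, at 2.47 FPKM. In Wnt5a the libraries ran from 2.28 FPKM upwards and in Wnt10b from 1.89 FPKM upwards, so the order of these neighbours is not separated by their spread. Wnt5b had a mean of 1.17 FPKM, Wnt6 of 0.97 FPKM and Wnt10a of 0.469 FPKM. Wnt5b overlaps Fbxl14 on the opposite strand, a gene with 6192 counts against 317 for Wnt5b, and the strand setting of the counting is not given in the sources used here, so the counts of Wnt5b are uncertain. Wnt2b and Wnt9a were tested at means of 0.889 and 0.652 CPM. Wnt1, Wnt3a and Wnt9b had 0 counts, and Wnt2, Wnt3, Wnt4, Wnt7a, Wnt8a, Wnt8b, Wnt11 and Wnt16 had 1 to 23 counts in all.

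**Figure D2:**
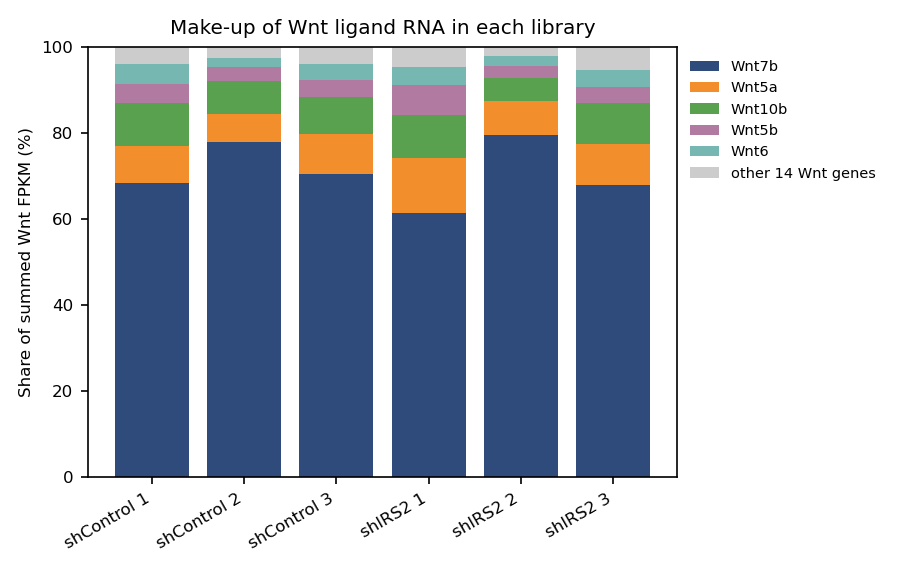
Share in percent of the summed FPKM of the 19 Wnt genes held by the 5 leading ligands and by the other 14 Wnt genes, 1 stacked bar per library. Wnt7b takes from 61.4% in shIRS2 1 to 79.6% in shIRS2 2.

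Among the receptors Fzd7 was the leading Frizzled and Lrp5 and Lrp6 were both well expressed. Fzd7 held a mean of 75.6% of the summed Frizzled FPKM, and its share ranged from 72.9% to 77.5% over the libraries. Fzd5 held 13.6%, and Fzd1, Fzd4 and Fzd9 held 3.83%, 3.5% and 3.04%. Fzd3, Fzd6, Fzd8 and Fzd10 had 0 counts in all libraries, and Fzd2 had 18 in all. Lrp5 had a mean of 14.8 FPKM and Lrp6 of 7.70 FPKM.

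The R-spondins and the antagonists of the Dkk, Sfrp and Wif1 families were at or near 0 counts, while both receptor ligases were measured. Rspo1, Rspo2, Rspo3 and Rspo4 had 0 counts, as had Dkk1, Dkk4, Sfrp1 and Wif1. Sfrp proteins bind Wnt proteins, and Dkk2 binds the Lrp co-receptors. Of the other genes of these families, Dkk2 had 57 counts in all and Sfrp4, Dkk3, Sfrp2 and Sfrp5 had 16, 2, 2 and 1. Of 12 listed secreted or membrane inhibitors outside these families, 5 had a mean of at least 1 CPM. Among them were Igfbp4 at a mean of 385 CPM, Draxin at 7.60 CPM and the Sfrp relative Frzb at 2.66 CPM, named after their values were seen. Another 5, among them Sost and Sostdc1, had 0 counts in all libraries. The counts of Dkk2 were 2, 13 and 6 in shControl 1 to 3 and 10, 24 and 2 in shIRS2 1 to 3, highest in number 2 of both groups. Lgr5, the crypt stem cell marker among the R-spondin receptors, had 23 counts in all, while Lgr6 had a mean of 1.43 FPKM and Lgr4 of 1.41 FPKM. Znrf3 had a mean of 6.88 FPKM and its paralog Rnf43 of 0.402 FPKM.

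Downstream, Ctnnb1 was the most abundant member at a mean of 124 FPKM. Axin1, the scaffold of the destruction complex, had 26.9 FPKM, and its paralog Axin2, a direct feedback target of β-catenin, had 0.453 FPKM. Of the LEF/TCF factors Tcf7l1, which acts largely as a repressor, held a mean of 68.7% of the summed FPKM, Tcf7 held 20.6%, Tcf7l2 held 10.3% and Lef1 held 0.394%. The order of these 4 genes was the same in all 6 libraries.

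Upstream sequences were looked up in RefSeq (GRCm38.p6) for 37 of the 56 members. Those of Tcf7l2, which has 2 listed starts, and of an internal start of Rnf43 are shown because Rnf43 passed the test by replicate number and Tcf7l2 passed the contrast of number 2 alone. Those of Lgr6 and Axin2 are shown because Lgr6 was the only tested member whose groups did not overlap and Axin2 is the feedback target. Each is the 250 bases before a start, 5′ to 3′ on the strand of the gene and outside annotated exons, and the data do not tell which start was used. Capitals mark a LEF/TCF-type box, searched on both strands as CTTTGAA and its variants CTTTGAT and also CTTTGTA and CTTTGTT.
Tcf7l2, first start, plus strand, chr19:55741560-55741809: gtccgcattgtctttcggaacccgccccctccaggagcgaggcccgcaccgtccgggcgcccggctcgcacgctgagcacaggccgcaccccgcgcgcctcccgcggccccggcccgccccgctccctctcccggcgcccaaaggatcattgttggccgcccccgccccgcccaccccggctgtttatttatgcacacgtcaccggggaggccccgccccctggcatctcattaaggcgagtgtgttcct
Tcf7l2, internal start, plus strand, chr19:55895071-55895320: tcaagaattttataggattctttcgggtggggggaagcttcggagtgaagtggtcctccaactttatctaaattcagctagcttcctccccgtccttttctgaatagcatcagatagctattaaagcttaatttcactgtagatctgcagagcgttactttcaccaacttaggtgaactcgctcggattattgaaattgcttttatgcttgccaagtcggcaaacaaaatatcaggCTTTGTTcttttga
Rnf43, internal start, plus strand, chr11:87699647-87699896: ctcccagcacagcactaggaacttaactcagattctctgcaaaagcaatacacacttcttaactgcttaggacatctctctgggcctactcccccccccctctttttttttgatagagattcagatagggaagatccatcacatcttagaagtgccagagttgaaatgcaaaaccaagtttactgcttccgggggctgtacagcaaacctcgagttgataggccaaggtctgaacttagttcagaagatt
Lgr6, minus strand, chr1:135105277-135105526: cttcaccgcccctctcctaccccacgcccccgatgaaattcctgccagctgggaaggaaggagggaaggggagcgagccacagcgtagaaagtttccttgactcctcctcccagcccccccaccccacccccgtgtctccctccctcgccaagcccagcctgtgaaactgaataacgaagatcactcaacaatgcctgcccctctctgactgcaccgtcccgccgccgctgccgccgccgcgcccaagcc
Axin2, plus strand, chr11:108920099-108920348: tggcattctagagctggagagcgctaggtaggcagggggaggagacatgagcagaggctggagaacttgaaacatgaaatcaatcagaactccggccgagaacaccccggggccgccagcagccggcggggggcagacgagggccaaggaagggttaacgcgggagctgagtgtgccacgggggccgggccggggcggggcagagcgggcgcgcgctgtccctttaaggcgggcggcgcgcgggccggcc
Of the windows shown, only that of the internal Tcf7l2 start holds a box, CTTTGTT. The window of Tcf7, which also passed the test by replicate number, holds none and is not shown. Of the other members called by number, Wnt7b, Lrp5 and Znrf3 had no entry, and Tcf7l1 had only 41 bases outside exons. Among all 32851 windows of the same length 14.8% hold at least 1 of the 4 boxes, and among the 47 windows of members 6 do, of Dkk1, Fzd7, Lef1, Tcf7l2, Wnt5b and Wnt11. These counts take all 250 bases of a window, annotated exons included. The window of Dkk1 has 81 bases outside exons, with 0 boxes in them. The windows shown range from 40.8% G and C at the internal Tcf7l2 start to 72.8% at its first start, where the median of all windows is 52.4%.

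No member passed the test between the labelled groups. The edgeR test called 0 of 26 tested members, where it called 0.0% of all 13472 genes tested, and 1 member had an unadjusted p under 0.05, where 1.94% of all genes had. DESeq2 and limma on log2(FPKM + 1) called 0 members as well, each with 1 at an unadjusted p under 0.05. Of all 13472 genes DESeq2 called 2, with 192 at an unadjusted p under 0.05, and limma called 0, with 327. With the replicate number as a block edgeR again called 0 members, where it called 0.00742% of all genes, with 3 members at an unadjusted p under 0.05, where 9.16% of all genes were. Of the 26 members 12 had a higher and 14 a lower fitted level in the libraries labelled shIRS2. The median of their log2 fold changes was -0.03, and that of all genes tested was below 0.01 in size. In 20 of the 26 the 95% interval of the log2 fold change lay within a 2-fold change either way.

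Lgr6, a receptor for R-spondins, was the member with the smallest p between the groups. It stood at 7.14, 5.81 and 10.6 CPM in shControl 1 to 3 and at 12.4, 11.9 and 11.2 CPM in shIRS2 1 to 3, from 107 to 210 counts a library. The groups did not overlap, and Lgr6 was the only tested member of which that holds, where 6.52% of all genes tested did not overlap, 2.75% with the libraries labelled shIRS2 above and 3.77% with them below. The fitted difference was 0.60 on the log2 scale (SE 0.21, 95% interval from 0.13 to 1.08), with an unadjusted edgeR p of 0.0175 and an adjusted p of 1.00. Blocking on the replicate number gave 0.63 (SE 0.17) and an adjusted p of 0.265 in edgeR. Within the pairs numbered 1, 2 and 3 the log2 ratios were 0.79, 1.04 and 0.07. Lgr6 (ENSMUSG00000042793) spans 134983301 to 135105276 of chromosome 1 in mm10, on the minus strand. Leaving out both libraries numbered 2, an alternative chosen after seeing the data, gave 0.41.

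The ligands Wnt10b and Wnt7b had lower means in the libraries labelled shIRS2 without passing the test. Wnt10b stood at 9.54, 10.6 and 8.36 CPM in shControl 1 to 3 and at 6.48, 6.51 and 9.13 CPM in shIRS2 1 to 3. Its groups overlapped through shIRS2 3, and the log2 fold change was -0.36 (SE 0.19), with an unadjusted edgeR p of 0.0866 and an adjusted p of 1.00. With the replicate number as a block the log2 fold change of Wnt10b was -0.36 (SE 0.16). The unadjusted edgeR p was then 0.0437 and the adjusted p 0.527. Its log2 ratios in the pairs numbered 1, 2 and 3 were -0.56, -0.70 and 0.13. Wnt7b averaged 115 ± 32.4 CPM over the controls and 96.0 ± 39.5 CPM over those labelled shIRS2 (SD, n = 3 each). The fitted difference was -0.25 (SE 0.31). Blocking on the replicate number gave -0.29 (SE 0.10, 95% interval from -0.50 to -0.07). The unadjusted edgeR p of that fit was 0.0126 and the adjusted p 0.406. Matched by number, the library labelled shIRS2 was lower in all 3 pairs. The match of numbers 1 and 3 across the groups is uncertain, and shIRS2 3 at 93.6 CPM was not below shControl 1 at 92.9 CPM. The largest difference of Wnt7b within a pair was in number 1, with a log2 ratio of -0.69, against -0.15 and -0.08 in numbers 2 and 3. Wnt9a had -0.33 (SE 0.43), at 6 to 16 counts a library.

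Ctnnb1, Axin2 and Tcf7l2 did not pass the test between the groups either. Ctnnb1 stood at 617, 616 and 661 CPM in shControl 1 to 3 and at 649, 676 and 650 CPM in shIRS2 1 to 3. The fitted difference was 0.07 on the log2 scale (SE 0.08), and its 95% interval ran from -0.10 to 0.25. Axin2 stood at 2.87, 2.73 and 2.48 CPM in shControl 1 to 3 and at 2.06, 1.52 and 3.39 CPM in shIRS2 1 to 3. The libraries labelled shIRS2 held both the lowest and the highest value, and the fitted difference was -0.21 (SE 0.30). Its 95% interval ran from -0.87 to 0.45, which leaves out a 2-fold change but not smaller ones. Tcf7l2 stood at 12.1, 14.5 and 11.3 CPM against 11.1, 15.5 and 11.4 CPM, a log2 fold change of 0.02 (SE 0.18).

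**Figure D3:**
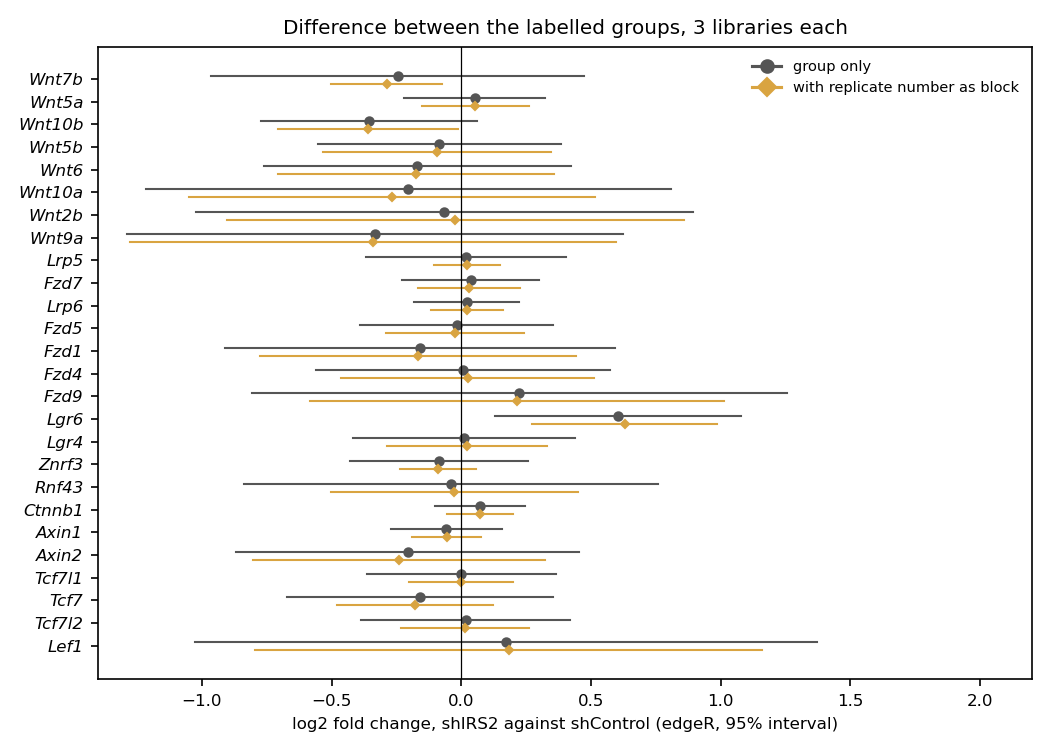
log2 fold change of each tested member between the libraries labelled shIRS2 and the control libraries (3 each), with 95% intervals from edgeR, for the fit on the group alone (circles) and with the replicate number as a block (diamonds). The interval of Lgr6 lies above 0 in both fits, and its adjusted p was 1.00 and 0.265.

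The same members were then compared by replicate number, with the group as a term of the model. The number test asks whether the 3 numbers differ in any way (an F test). It called 6 of the 26 tested members, which is 23.1%, where it called 19.6% of all genes tested, so the share of members is near that of the whole table. By the sign of the contrast of number 2 with the mean of numbers 1 and 3, 2 of the called members were on the higher side, where 9.38% of all genes were, and 4 on the lower, where 10.2% were. In the test of that contrast, which was set with earlier results of these data known, 3 members were higher and 4 lower, where 11.6% and 11.9% of all genes were. Between numbers 3 and 1 the test called 0 members, where it called 0.238% of all genes. The median log2 difference of number 2 was -0.08 over the 26 members, and that of all genes tested was below 0.01 in size. Both libraries numbered 2 lay outside the range of the other 4 in 11 of 26 members, 4 above and 7 below, where 40.1% of all genes tested did so.

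Wnt7b had its own highest values in the libraries numbered 2. It stood at 92.9, 152 and 99.1 CPM in shControl 1 to 3 and at 57.6, 137 and 93.6 CPM in shIRS2 1 to 3. Number 2 exceeded the other 4 libraries in both groups, and shIRS2 1 was the lowest. The log2 difference of number 2 from the mean of 1 and 3 was 0.80 (SE 0.10), with an edgeR adjusted p of the number test of 0.000480. The gene (ENSMUSG00000022382) occupies bases 85535437 to 85582473 of chromosome 15 in mm10, minus strand.

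Of the co-receptor genes Lrp5 passed the number test and Lrp6 did not, and the difference between them was not tested. Lrp5 stood at 143, 114 and 177 CPM in shControl 1 to 3 and at 145, 117 and 173 CPM in shIRS2 1 to 3. The 2 groups gave nearly the same values at each number, with log2 ratios of 0.02, 0.04 and -0.03 in the pairs, and number 2 was the lowest and number 3 the highest in both. The log2 difference of number 2 was -0.43 (SE 0.07), with an edgeR adjusted p of the number test of 0.000405. Lrp6 stood at 103, 99.5 and 114 CPM against 109, 98.2 and 111 CPM. Number 2 was again below the other libraries, but the log2 difference was -0.11 (SE 0.07) and the adjusted p 0.346. Lrp5 (ENSMUSG00000024913) occupies bases 3584828 to 3686564 of chromosome 19 in mm10, minus strand.

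The paralogous receptor ligases differed by number in opposite directions. Znrf3 stood at 52.7, 65.0 and 51.0 CPM in shControl 1 to 3 and at 45.8, 63.6 and 48.4 CPM in shIRS2 1 to 3, highest in both libraries numbered 2. Its log2 difference was 0.41 (SE 0.07), with an edgeR adjusted p of the number test of 0.00334. Rnf43 stood at 3.34, 1.41 and 3.39 CPM against 3.00, 1.70 and 3.07 CPM, lowest in both libraries numbered 2. Its log2 difference was -1.01 (SE 0.25) and its adjusted p 0.0282, from 28 to 60 counts a library. Znrf3 (ENSMUSG00000041961) and Rnf43 (ENSMUSG00000034177) both lie on chromosome 11 in mm10, from 5276324 to 5444847 on the minus strand and from 87662722 to 87735539 on the plus strand.

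Of the LEF/TCF factors Tcf7l1 and Tcf7 were lower in number 2, while Tcf7l2 was higher without passing the number test. Tcf7l1 stood at 45.3, 31.3 and 41.4 CPM in shControl 1 to 3 and at 36.4, 32.9 and 47.6 CPM in shIRS2 1 to 3, a log2 difference of -0.38 (SE 0.10) with an edgeR adjusted p of 0.0323. Tcf7 stood at 10.1, 6.82 and 8.02 CPM against 9.24, 5.17 and 7.67 CPM, a log2 difference of -0.51 (SE 0.15) with an edgeR adjusted p of 0.0387. In both genes the libraries numbered 2 were the lowest, though Tcf7l1 in shIRS2 1 was close to them. Tcf7l2 was highest in both libraries numbered 2, by the values given above, with a log2 difference of 0.41 (SE 0.12). Its adjusted p was 0.0580 in the number test and 0.0211 in the contrast of number 2 alone. Its share of the LEF/TCF FPKM was 13.4% and 14.6% in the libraries numbered 2 and 7.94% to 9.0% in the other 4. In mm10 Tcf7l1 (ENSMUSG00000055799) spans 72626378 to 72789254 of chromosome 6 and Tcf7 (ENSMUSG00000000782) 52252371 to 52283014 of chromosome 11, both on the minus strand. Tcf7l2 (ENSMUSG00000024985) spans 55741810 to 55933654 of chromosome 19 on the plus strand.

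These calls differed in how they held up in other fits. Lrp5 and Wnt7b passed the number test in every alternative, including DESeq2, limma on log2(FPKM + 1) and the fits without any 1 library. DESeq2 called 3 members, Lrp5, Wnt7b and Znrf3, where it called 12.2% of all genes, and limma on log2(FPKM + 1) called only Lrp5 and Wnt7b, where it called 5.96%. Without shControl 2, and without shIRS2 2, only Lrp5 and Wnt7b were called, where 5.83% and 7.05% of all genes were, so the share of members fell with that of the whole table. Rnf43, Tcf7l1 and Tcf7 were thus called by edgeR and by neither of the other tools, where DESeq2 gave no adjusted p for Rnf43. Tcf7 was also not called without shControl 1, without shIRS2 1 or without the group term.

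**Figure D4:**
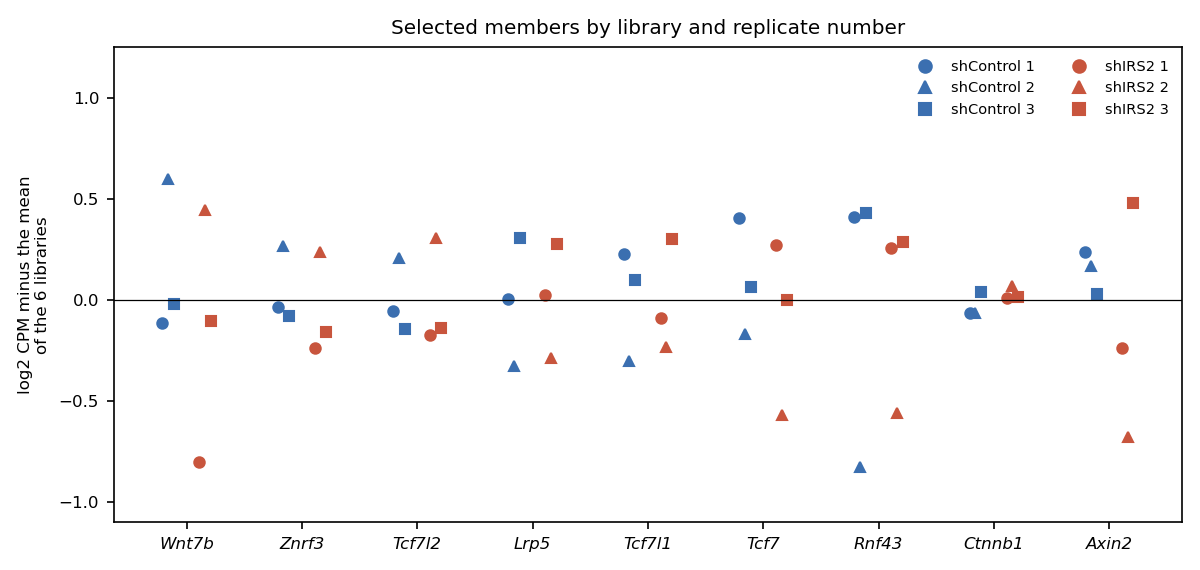
log2 CPM minus the mean of the 6 libraries, for the 6 members past the number test with Tcf7l2, Ctnnb1 and Axin2; colour gives the label and shape the replicate number. Triangles, the libraries numbered 2, lie highest in Wnt7b, Znrf3 and Tcf7l2 and lowest in Lrp5, Tcf7l1, Tcf7 and Rnf43 in both colours.

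Ctnnb1 and Axin2 did not pass the number test. Ctnnb1 had a log2 difference of number 2 of 0.03 (SE 0.06), within a 95% interval from -0.10 to 0.17, and the edgeR adjusted p was 0.762. Axin2 had -0.30 (SE 0.28), within an interval from -0.90 to 0.30, and an edgeR adjusted p of 0.576, at 25 to 54 counts a library. Axin1 stood at 104, 98.1 and 115 CPM in shControl 1 to 3 and at 97.1, 96.2 and 109 CPM in shIRS2 1 to 3, with number 3 the highest in both groups and an adjusted p of 0.164.

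The remaining members above 1 CPM did not pass the number test. Fzd7 stood at 39.6, 38.1 and 35.3 CPM in shControl 1 to 3 and at 40.0, 32.4 and 42.6 CPM in shIRS2 1 to 3. Fzd5 stood at 11.8, 9.30 and 10.6 CPM against 10.95, 8.40 and 11.6 CPM, and Fzd4 at 1.87, 2.98 and 2.88 CPM against 2.47, 2.86 and 2.43 CPM. Fzd1 stood at 1.73, 1.62 and 2.26 CPM against 0.942, 1.89 and 2.17 CPM. Of these Frizzleds only Fzd5 had both libraries numbered 2 outside the range of the other 4, below it, with an edgeR adjusted p of the number test of 0.236. Wnt5a stood at 18.3, 20.3 and 21.1 CPM in shControl 1 to 3 and at 19.3, 21.3 and 20.8 CPM in shIRS2 1 to 3, with a log2 difference of number 2 of 0.10 (SE 0.10). Wnt5b stood at 3.27, 3.28 and 3.11 CPM against 3.53, 2.68 and 2.81 CPM, and Wnt6 at 2.73, 1.82 and 2.31 CPM against 1.83, 1.70 and 2.49 CPM. Wnt10a stood at 1.27, 1.11 and 1.36 CPM against 0.530, 0.730 and 1.98 CPM. In Wnt10a the libraries labelled shIRS2 spread over 9 to 31 counts, where the control libraries held 19 to 24. Lgr4 stood at 9.34, 9.45 and 6.21 CPM against 8.30, 8.77 and 7.86 CPM, with number 3 the lowest in both groups. Fzd9, Lef1, Wnt2b and Wnt9a, the tested members under 1 CPM, had adjusted p-values of the number test of 0.141, 0.194, 0.736 and 0.867.

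Other genes of the pathway were read from 7 lists, of which 100 genes were in the table and 67 were tested. The edgeR test between the groups called 0 of them, and 0 had an unadjusted p under 0.05. Their median log2 fold change was 0.02. The number test called 23 of the 67, or 34.3%, where it called 19.6% of all genes tested. Of these 23 genes, 9 were higher and 9 lower in number 2 by the contrast as well, and 5 did not pass that contrast. These lists were chosen with earlier results of these data known.

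In the list of Dishevelled and the destruction complex, 5 of 22 tested genes passed the number test and were lower in number 2, where 10.2% of all genes were called on that side, and 1 was higher, where 9.38% were. All 3 Dishevelled genes, which relay the signal from Frizzled, were among the lower ones. Dvl2 stood at 101, 69.6 and 114 CPM in shControl 1 to 3 and at 102, 78.3 and 107 CPM in shIRS2 1 to 3, a log2 difference of -0.49 (SE 0.08) with an edgeR adjusted p of 0.00121. Dvl1 had -0.39 (SE 0.07), Dvl3 had -0.33 (SE 0.07) and Apc2, an Apc paralog, had -0.47 (SE 0.09). Apc itself had 0.11 (SE 0.07) and Gsk3b had -0.21 (SE 0.07), at edgeR adjusted p-values of 0.448 and 0.0789. The list median was -0.18.

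In the list of Wnt target genes outside the rule, 5 of 10 tested genes were higher in number 2 and 1 was lower, where 9.38% and 10.2% of all genes were called on those sides, with a list median of 0.20. Ccnd1, which encodes cyclin D1, stood at 217, 362 and 234 CPM in shControl 1 to 3 and at 208, 353 and 227 CPM in shIRS2 1 to 3. Its log2 difference was 0.72 (SE 0.06), with an edgeR adjusted p of 1.35e-05. Cd44, a cell surface receptor for hyaluronan, had 0.61 (SE 0.06), the transcription factor gene Myc 0.45 (SE 0.07) and Apcdd1, a membrane inhibitor of Wnt signalling, 0.40 (SE 0.07). The lower gene was Sox9, a transcription factor of intestinal crypts, at -0.54 (SE 0.09), named after its values were seen. The tested targets not called were Nkd1 at -0.29 (SE 0.21), Ephb3 at -0.17, Id2 at -0.08 and Jag1 at 0.10. The list leaves out members of the rule, among them the feedback target Axin2, which had -0.30 (SE 0.28) and was not called. Gcg, a target of Tcf7l2 in L cells, had 0 counts. Of the 23 listed targets with a row of counts, 13 had a mean under 1 CPM, among them Ascl2, Sp5, Notum and Tnfrsf19.

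Of the other lists single genes are given. The number test called 2 of 5 tested co-receptors outside the rule and 1 of 3 tested genes of Wnt secretion. Of 10 tested planar cell polarity genes it called 1 on the higher and 2 on the lower side. Kremen1, a Dkk receptor that removes Lrp6 from the surface, was lower in number 2 at -0.38 (SE 0.07), and Mesd, a chaperone of Lrp5 and Lrp6, was higher at 0.31 (SE 0.07). Prickle1, of the planar cell polarity branch, stood at 11.4, 22.4 and 11.5 CPM in shControl 1 to 3 and at 9.60, 22.3 and 11.7 CPM in shIRS2 1 to 3. Its log2 difference was 1.05 (SE 0.11), with an edgeR adjusted p of 0.000108. Among 14 tested nuclear partners of β-catenin the number test called 4, where it called 19.6% of all genes tested. Of these 4 the co-repressor genes Tle1 and Tle2 passed the contrast of number 2. Tle1 was higher at 0.25 (SE 0.07) and Tle2 lower at -0.62 (SE 0.17). Wls, which carries Wnt proteins to the cell surface, stood at a mean of 255 CPM in number 2 and 287 CPM in the other libraries, with an adjusted p of 0.1003.

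**Figure D5:**
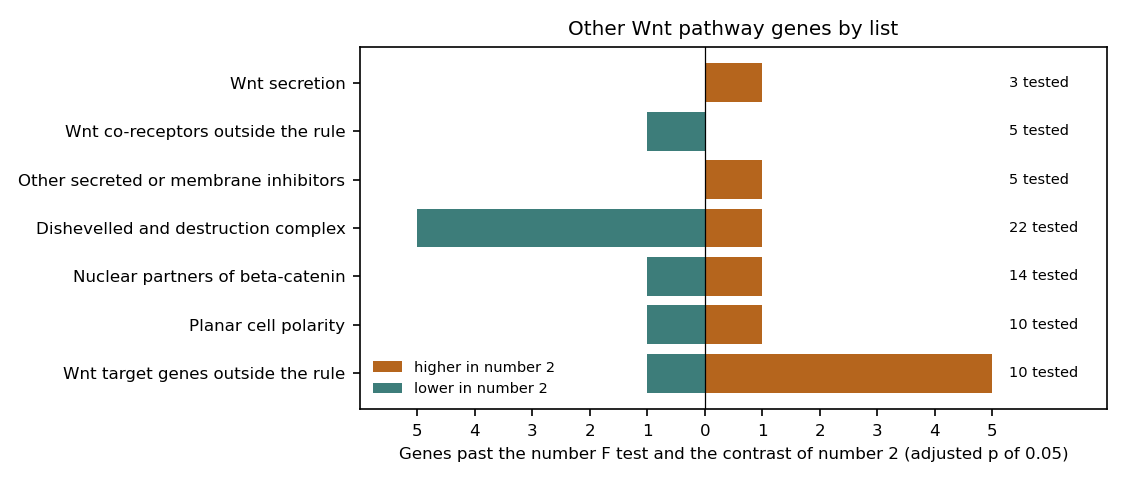
Number of genes past both the replicate number test and the contrast of number 2 in each of 7 lists of other Wnt pathway genes, with those higher in number 2 to the right and those lower to the left. The targets outside the rule have 5 to the right and 1 to the left, and Dishevelled with the destruction complex 1 to the right and 5 to the left.

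Some other measures were also set against the number. Mitochondrial transcripts took 1.63% and 1.71% of the counts in the libraries numbered 2 and 1.2497% to 1.61% in the others, so both libraries numbered 2 were the highest. Library totals did not follow the number, at 19790073 and 16428788 counts in number 2 and 14991019 to 17711094 in the others. Of 10 tested fibroblast and mesenchymal markers the number test called 4, where it called 19.6% of all genes. Pdgfrb was higher in number 2, Pdgfra and Col6a1 were lower, and Twist1 did not pass the contrast of number 2. The sum of the list was 2772 and 3238 CPM in number 2 and 2788 to 3429 CPM in the others, which overlap. Of 7 tested L cell markers it called Etv1, which was lower in number 2. The part of these in the differences by number was not tested, and what the numbers stand for cannot be told apart from the libraries themselves.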

How the data were processed

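RNA of 6 libraries was sequenced as strand-specific poly(A) libraries with paired ends of 150 bp, from RNA with an integrity number above 7, per the labels' protocols. Coordinates are in mm10, the build named in the submitters' processing notes. The aligner, counter and strand setting were not given in the sources used here. The authors deposited a table of 54532 genes with unnormalized whole read counts. A separate deposited table has FPKM values, which follow from the counts, the gene lengths in the count table and a library total between 0.985 and 1.02 times the summed counts. Columns named NC and S were read as sh-control and sh-IRS2 with the number of the title, which rests on the names alone.

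The tests on counts used edgeR 4.0.16 under R 4.3.3 (filterByExpr, TMM, robust quasi-likelihood tests, two-sided), on the 13472 genes that passed the filter and hold 99.9% of the counts. P-values were adjusted by Benjamini-Hochberg over all genes tested, with a threshold of 0.05, and every adjusted p is from edgeR unless another tool is named. The group comparison had the group as its only term, and the number comparison was an F test over the replicate number with the group as a term. Alternatives used DESeq2 1.42.0, limma 3.58.1 on log2 FPKM, other filters and scaling, and left-out libraries. The functions were tested on simulated data with the same dispersion for all genes and, for the group comparison, no difference by number. That check does not measure how well changes between the groups can be detected in these libraries. CPM are counts per 1000000 counts of the library, and limits for 0 counts take 3 counts over the 6 totals and cover counting error only.

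The members and lists were chosen with earlier results of these data known. Every member is accounted for, and those with a mean of at least 1 CPM are given by library. Test results are given for members called by number, for the 6 with the smallest p between groups, and for Ctnnb1, Axin2 and Tcf7l2. Up to 4 genes a list are named for the number test, with Gcg, Myc, Ccnd1, Apc and Gsk3b. As a check of pairing, deviations from the group mean were correlated over all genes tested between libraries of the same number. The correlation was 0.167, 0.576 and 0.260 for numbers 1, 2 and 3. The numbers were taken to pair the libraries, though no label gives a pairing and only number 2 stood clearly apart. By this measure shControl 1 correlated slightly better with shIRS2 3, at 0.189, and shIRS2 1 with shControl 3, at 0.199. Another gene overlaps 13 of the tested members, and in 7 of these it held under 1% of the member's counts.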

Additional observations from a re-analysis of the deposited data

How the results depend on the processing

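The count of members called between the groups was 0 in all 16 alternatives, with the replicate block (0 members), without shIRS2 2 or any other single library (0 to 0) and without both libraries numbered 2. The count of members called between replicate numbers was 6, and it was 3 with DESeq2, 2 with limma on log2(FPKM + 1), 2 with limma on log2(FPKM + 0.1) and 2 to 9 with single libraries left out, where 5.83% to 27.4% of all genes were called. Of all genes tested DESeq2 called 12.2%, and limma called 5.96% on log2(FPKM + 1) and 6.41% on log2(FPKM + 0.1), against 19.6% in the main fit. The count of members was 5 without the group term, where 14.6% of all genes were called. It was 8 of 41 members without a filter, where 12.4% of all genes were, which added Dkk2 and Tcf7l2. Single left-out libraries moved the group log2 fold change of Axin2 from -0.57 to 0.014, of Tcf7l2 from -0.17 to 0.14, of Wnt7b from -0.60 to 0.026 and of Lgr6 from 0.43 (without shControl 2) to 0.88 (without shControl 3). The highest values were without shIRS2 2 for Axin2 and without shControl 2 for Wnt7b. They moved the log2 difference of number 2 of Axin2 from -0.79 to 0.066 and of Ctnnb1 from -0.019 to 0.086. Without both libraries numbered 2, chosen after seeing the data, the group log2 fold change was 0.035 for Axin2, -0.044 for Tcf7l2 and 0.0058 for Wnt9a. With the replicate block as well these were 0.022, -0.044 and 0.016. The cause was not tested. Depth limits the members at few counts, such as Axin2 at 25 to 54 and Rnf43 at 28 to 60 counts a library.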
